A study of Mus musculus with 2 samples.

Results

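The interferon-stimulated genes described here are 39 mouse genes chosen by symbol for their known response to interferon. All 39 were among the 40879 gene symbols counted in the intestine of WT mice and of mice with 1 disrupted copy of Erap1 (ERAP1+/-). Mice of both genotypes were on the C57BL/6 background, were assigned at 8 weeks of age and, as untreated controls, drank plain water for 28 days. The methods call them germ-free and state that they were kept in a specific pathogen-free facility, and their sex is not given in the sources used here. The ERAP1+/- allele goes back to embryonic stem cells of 1 clone that carried the ERAP1tm1a (EUCOMM)Wtsi allele, in which loxP sites flank the exons removed by a Cre recombinase strain whose driver is not named. RNA from 3 mice was pooled for each genotype and sequenced as 1 library from the 3′ ends of its transcripts, so that the study has 2 libraries and no replicate. No difference between them has a replicate check, and no p-value is given.

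Interferons are secreted proteins that warn tissue of infection. Type I and type III interferons act through receptor kinases of the JAK family on STAT2, which works with IRF9 in the complex ISGF3, and ISGF3 binds the interferon-stimulated response element (ISRE) in front of its target genes. Interferon-gamma, the type II interferon, acts through another element, the gamma-activated site (GAS). The proteins made in response block entry of viruses, degrade RNA, attack vacuoles that hold microbes and adjust the response itself. In the intestine the epithelium answers mainly to type III interferons, immune cells of the lamina propria answer to type I, and some of these genes are kept on by the resident microbes without any infection.

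The authors deposited reads counted per gene, without normalisation, which total 8114826 for WT and 8907515 for ERAP1+/-. Levels are given as CPM, counts per 1e6 reads of a library size scaled with TMM (trimmed mean of M values), and differences as ERAP1+/- minus WT on the log2(CPM + 1) scale, a scale that compresses differences at low counts. Ratios of ERAP1+/- to WT are given with exact 95% intervals for counting error, and a gene listed at 0 may have had up to 3 reads (0.386 CPM in WT, 0.322 CPM in ERAP1+/-). Of the targeted gene itself, 229 reads were counted in WT and 2 in ERAP1+/-, a 137-fold lower level of Erap1 (95% interval 37.5 to 1139). This is lower than 1 intact copy beside a disrupted one would be thought to give, so the genotype names are used here as the labels of the libraries. The reads come from the 3′ end of the transcript, outside the deleted exons, and do not read the deletion itself. Both libraries held the 14 intestinal epithelium genes used to check the tissue, with 115740 and 128873 reads. The WT library also held 28651 reads of 16 stratified epidermis genes and 10421 reads of 14 skeletal muscle genes, against 405 and 206 in the ERAP1+/- library. Xist, the RNA that coats a silenced X chromosome, had 1635 and 6451 reads, and the Y-linked Ddx3y had 319 and 29. The part of dissection or sex in the differences below was not tested, and with 1 library for each genotype neither can be told apart from the genotype.

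The interferon-stimulated genes together had 7091 reads in WT and 7244 in ERAP1+/-, which is 912.6 and 778.7 CPM, and their summed level was 1.17-fold lower in the ERAP1+/- library (95% interval 1.13 to 1.21), where the reads of all genes scaled alike were 1.09-fold lower. Of the 39 genes, 36 had at least 10 reads over both libraries, and over these the median log2 difference was -0.15, against 0.00 for all 16142 genes with as many reads. The point value was lower in the ERAP1+/- library for 23 genes and higher for 13, where 49.7% of all such genes were lower and 50.3% higher. When the libraries were scaled by their total count instead, 19 were lower and 17 higher, and the median of all genes moved to 0.11. In a bulk library, fewer cells of a type and less RNA per cell cannot be told apart.

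Beyond counting error, the genes split. The interval of the ratio lay below 1 for 13 of the 36 genes (36.1%) and above 1 for 5 (13.9%), and it included 1 for 18. Among all 16142 genes, 23.8% had intervals below 1 and 20.6% above, 44.4% in either direction, so that an interval that leaves out 1 is common in these libraries. The 13 lower genes were Ifitm3, Oasl1, Oasl2, Rsad2, Isg15, Stat2, Irf1, Irf7, Irf9, Gbp3, Gbp7, Zbp1 and Rtp4, and the 5 higher genes were Ifitm1, Ifitm2, Isg20, Trim30a and Ifi44.

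**Figure D1:**
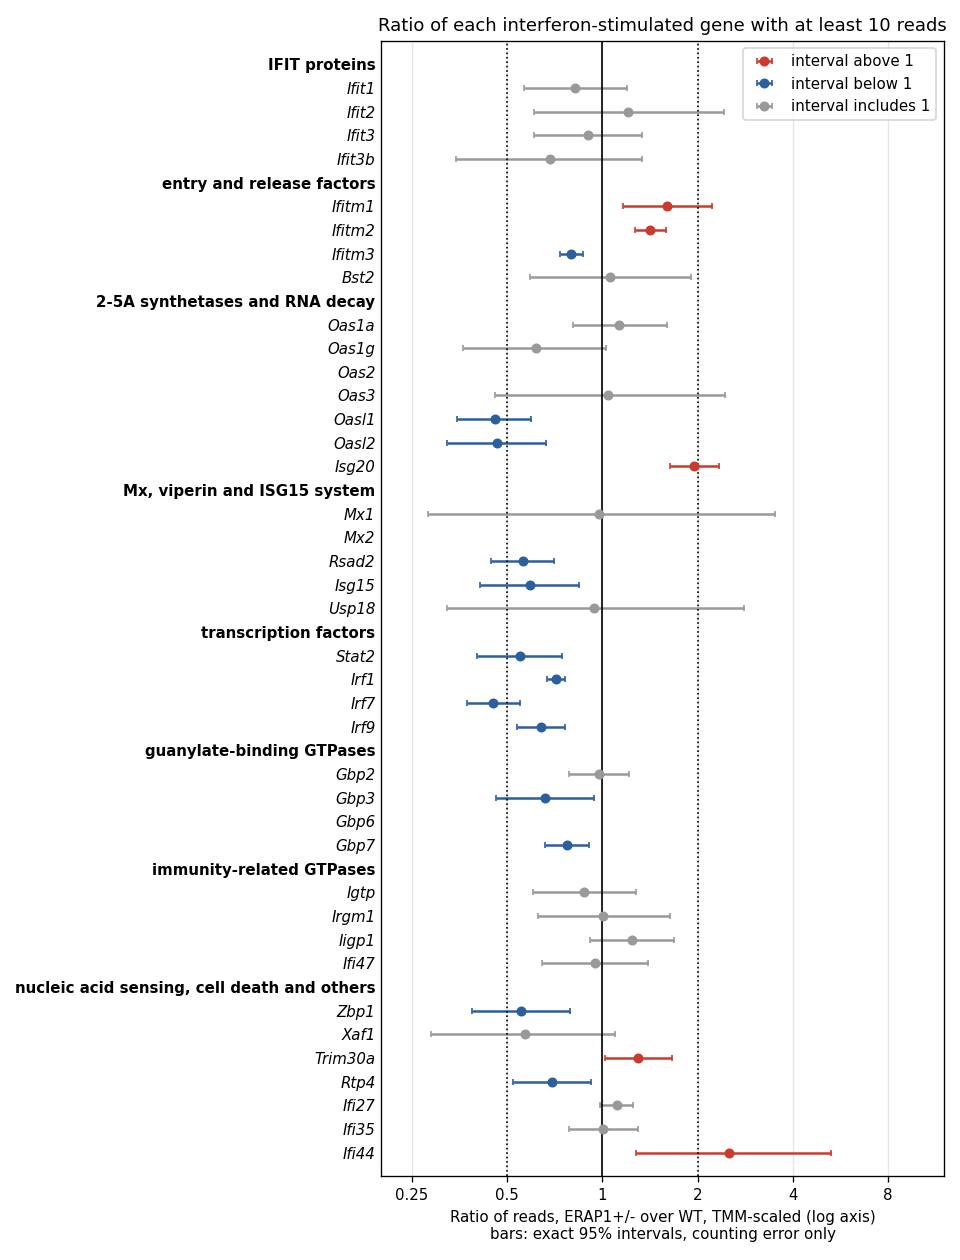
Ratio of TMM-scaled reads, ERAP1+/- over WT (x axis, log scale), for the 36 interferon-stimulated genes with at least 10 reads, ordered by role. Points are ratios of 1 library each and bars are exact 95% intervals for counting error, with dotted lines at 2-fold. All 4 transcription factors lie below 1, while Isg20 (1.95), Ifitm1 (1.60) and Ifitm2 (1.42) lie above it.

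By the 2-fold rule used for the whole comparison, 2 genes were called, Irf7 and Oasl1, both lower in the ERAP1+/- library, and no interferon-stimulated gene was called higher. A gene was called when it differed more than 2-fold on the log2(CPM + 1) scale and had a value of at least 4 (15 CPM) in 1 or both libraries. Of the 39 genes, 13 reached that level. The background was 5.34% of the 8013 genes past that level, with 3.96% lower and 1.39% higher. Both calls lay close to the threshold and changed with the scaling. By the total count alone neither Irf7 (-0.98) nor Oasl1 (-0.94) was called, and Isg20 (1.06) was called higher in their place. Scaling by the reads of epithelial markers called Irf7 (-1.0) lower and Isg20 (1.04) higher.

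**Figure D2:**
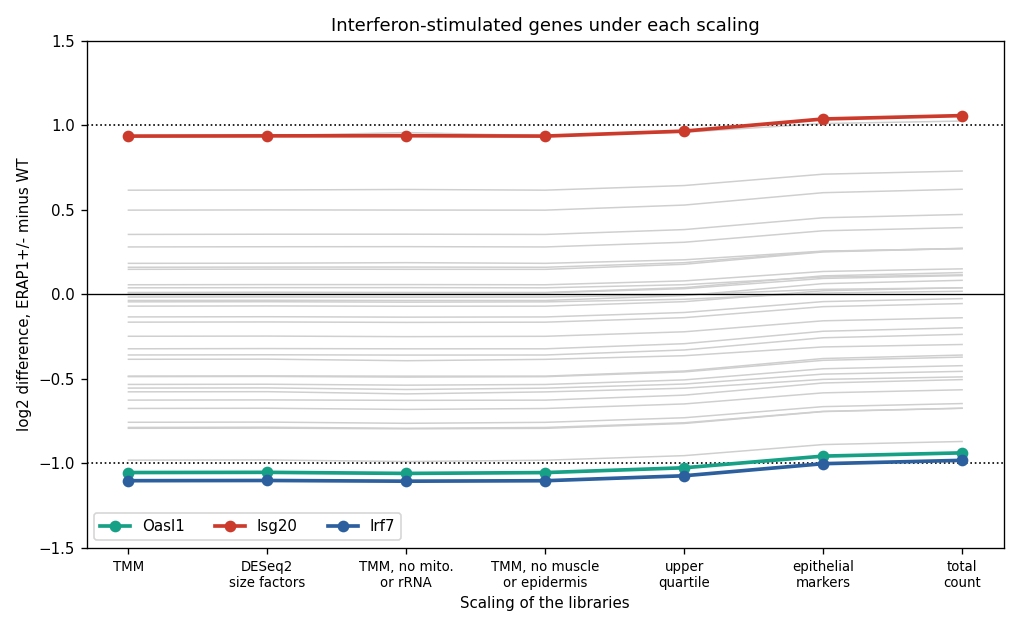
Log2 difference, ERAP1+/- minus WT on the log2(CPM + 1) scale (y axis), of the 36 interferon-stimulated genes with at least 10 reads under 7 scalings of the libraries (x axis), with 1 line per gene and dotted lines at 2-fold. Under TMM, Irf7 (-1.10) and Oasl1 (-1.05) lie just past the lower line and Isg20 (0.94) just inside the upper one, and under the total count the 3 genes change places across the lines.

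The transcription factors that carry the interferon signal were the group with the lowest median. All 4 were lower in the ERAP1+/- library, with a median log2 difference of -0.71, and the interval of each lay below 1 under every scaling tried. Their reads summed to 2664 and 2130, a 1.5-fold lower level (95% interval 1.41 to 1.59). Irf7, which drives the genes of type I interferon once it is activated, is transcribed from the minus strand of chromosome 7 (GRCm38, 141262706 to 141266481). Its 312 WT and 169 ERAP1+/- reads, or 40.2 and 18.2 CPM, put it 2.21-fold lower (95% interval 1.83 to 2.68), a log2 difference of -1.10. Stat2 and Irf9 encode the parts of ISGF3 that are particular to type I and type III interferon. Stat2 (chromosome 10, 128270559 to 128292849) had 108 and 71 reads and was 1.82-fold lower (1.34 to 2.49). Irf9 (chromosome 14, 55603571 to 55610030) had 311 and 238 reads and was 1.56-fold lower (1.32 to 1.86). Irf1, which responds to interferon-gamma and is present in resting epithelium, had the most reads of the 39 genes. Irf1 (chromosome 11, 53770014 to 53778374) had 1933 and 1652 reads, 248.8 and 177.6 CPM, and was 1.40-fold lower (1.31 to 1.5).

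The ratio of Irf7 was lower than those of Irf1 and Irf9. A ratio of ratios, which does not depend on the scaling, was formed for 16 pairs of members chosen after their values were seen. Because of that choice, their intervals describe counting error and do not test whether the members differ. The intervals of Oas1a and Oas1g (0.980 to 3.46), Iigp1 and Igtp (0.864 to 2.29) and Ifit2 and Ifit1 (0.662 to 3.27) included 1. So did those of Gbp2 with Gbp3 (0.971 to 2.25) and with Gbp7 (0.957 to 1.65). That of Ifi44 and Ifi35 (1.20 to 5.47) did not. The ratio of Irf7 was 0.634 times that of Irf1 (95% interval 0.517 to 0.776) and 0.708 times that of Irf9 (0.546 to 0.918). Those of Irf9 and Irf1 (0.895, 0.744 to 1.08) and of Stat2 and Irf9 (0.859, 0.599 to 1.23) could not be separated at this depth. Irf7 overlaps Phrf1 on the other strand, which had 392 and 596 reads and a ratio of 1.27 (1.12 to 1.45), in the direction opposite to Irf7. Irf9 overlaps Rnf31 on the same strand, with 91 and 82 reads. The strand setting of the counting is not given in the sources used here.

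Among Mx, viperin and the ISG15 system, Rsad2 and Isg15 were lower beyond counting error under every scaling tried, and the other genes had too few reads to tell. Viperin, encoded by Rsad2 (chromosome 12, 26442746 to 26456452), makes a nucleotide analogue that stops viral RNA synthesis. With 188 WT and 126 ERAP1+/- reads, Rsad2 was 1.79-fold lower (1.42 to 2.26). Isg15 (chromosome 4, 156199424 to 156200818), a ubiquitin-like protein that is joined to other proteins during the response, had 78 and 55 reads and was 1.70-fold lower (1.19 to 2.44). Usp18, which removes ISG15 and damps the type I receptor, had 8 and 9 reads. Mx1, a dynamin-like GTPase that many laboratory mice carry only in a defective form, had 6 and 7 reads, so that neither gene could show a difference of this size. Mx2, annotated as a polymorphic pseudogene, had 0 and 5 reads. With its WT reads set to the floor of 3, the ratio of Mx2 would be 1.39. Its exact lower 95% limit of 0.765 lay below 1, so no direction can be given. The reads of the group of 5 summed to 280 and 202, a 1.66-fold lower level (1.38 to 2.0).

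The oligoadenylate synthetases and their relatives went in several directions. OAS proteins sense double-stranded RNA and make short oligoadenylates that switch on the RNA-degrading enzyme RNase L. Oas1a had 62 and 84 reads and a ratio of 1.13 (95% interval 0.805 to 1.60), and Oas1g had 38 and 28 reads, a ratio of 0.615 (0.364 to 1.03). Both intervals included 1. In the last 500 bases of the transcripts, 46.0% of the 75-base words of Oas1a and 18.5% of those of Oas1g occur in other genes, so that reads of these genes are uncertain. The interval of Oas3 included 1 as well, with 12 and 15 reads. Oas2 had 1 and 6 reads, a ratio of 5.01 with an interval from 0.608 to 231. The OAS-like genes, which lie next to each other on chromosome 5, were the low members. Oasl1, whose product blocks translation of the Irf7 message, lies from 114923240 to 114937915 and had 161 and 88 reads, 20.7 and 9.46 CPM. It was 2.19-fold lower in the ERAP1+/- library (1.68 to 2.87), a log2 difference of -1.05. Oasl2 (114896936 to 114912234) had 90 and 50 reads and was 2.15-fold lower (1.51 to 3.11). It was not called, as its log2 difference of -0.98 did not pass 2-fold on the log2(CPM + 1) scale. Its log2 level of 3.65 in the WT library also lay under the level of 4 that a call needed. The ratio of Oasl1 was 0.404 times that of Oas1a (0.260 to 0.626).

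Isg20 was the member with the largest higher value among those past the level of 4. Isg20, an exonuclease that degrades single-stranded RNA, is transcribed from the plus strand of chromosome 7 (78913424 to 78920396). Its reads went from 178 in WT to 416 in ERAP1+/-, 22.9 and 44.7 CPM, with a ratio of 1.95 (95% interval 1.63 to 2.34) and a log2 difference of 0.94. The ratio of Isg20 was 3.31 times that of Isg15 (2.21 to 4.98). Isg20 is also a gene of plasma cells, and the 10 marker genes of B and plasma cells had 2024 and 4923 reads, a summed level 2.03 times the WT level (1.93 to 2.14). Of the 9 B and plasma cell genes with at least 10 reads, 7 had intervals above 1 and 1 below, against 20.6% and 23.8% of all genes. The part of these cells in the reads of Isg20 was not tested.

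**Figure D3:**
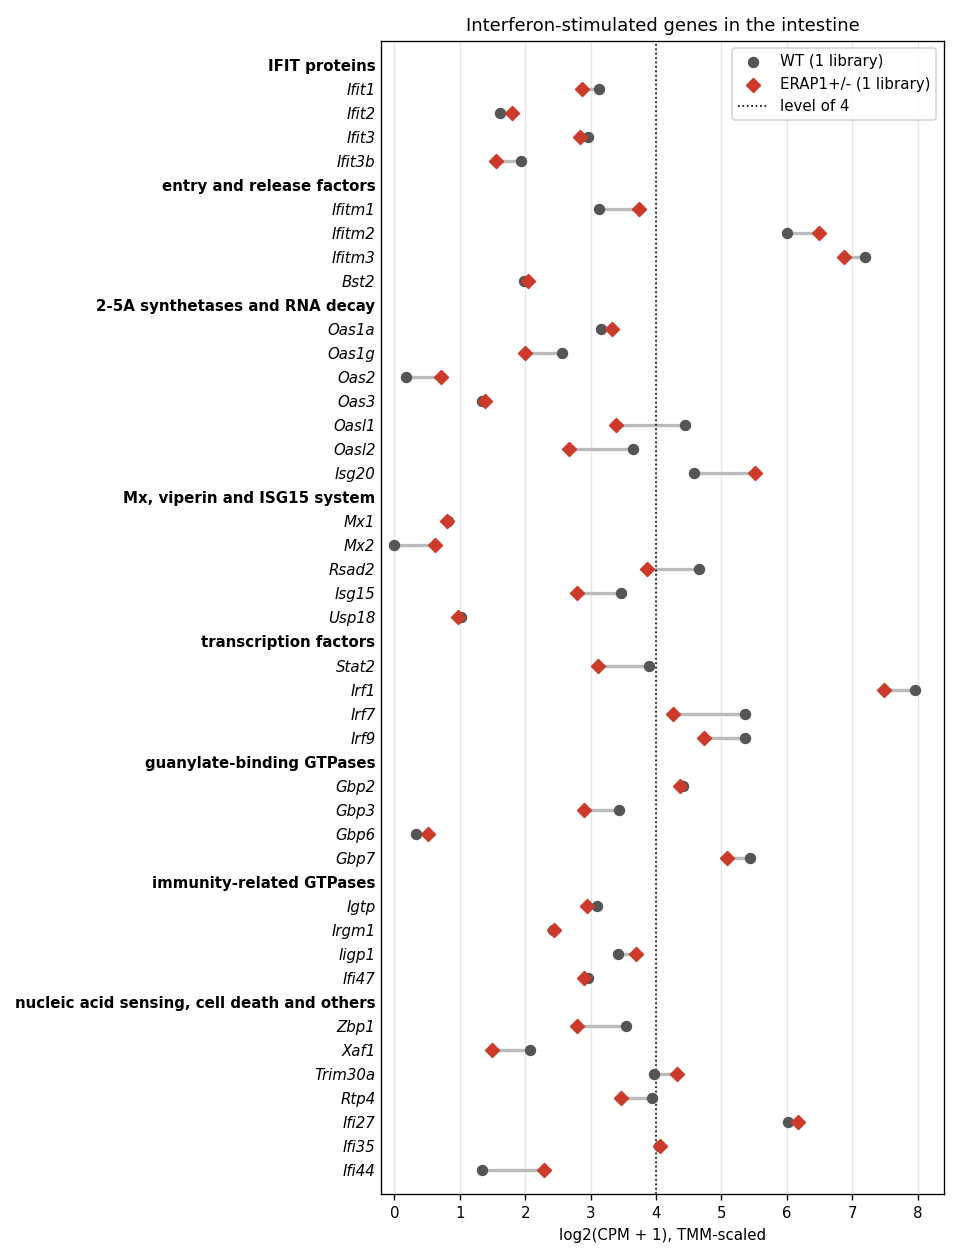
Level of the 39 interferon-stimulated genes as log2(CPM + 1), TMM-scaled (x axis), in the WT library (circles) and the ERAP1+/- library (diamonds), grouped by role, with 1 library per genotype and a dotted line at the level of 4. Irf7 lies at 5.36 in WT and 4.26 in ERAP1+/-, Oasl1 at 4.44 and 3.39 and Isg20 at 4.58 and 5.51, and the IFIT genes lie under the level of 4 in both libraries.

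The interferon-induced transmembrane proteins, which stop viruses from fusing with cell membranes, differed from each other although their genes lie together on chromosome 7. Ifitm1 (140967221 to 140969825) had 60 WT and 115 ERAP1+/- reads, giving a ratio of 1.60 (95% interval 1.16 to 2.23). Ifitm2 (140954837 to 140955987) had 490 and 832 reads, a ratio of 1.42 (1.27 to 1.59). Ifitm3 (141009586 to 141010770) had 1131 and 1081 reads and was 1.25-fold lower (1.15 to 1.36). Without any scaling, the ratio of Ifitm2 was 1.78 times that of Ifitm3 (1.54 to 2.05) and that of Ifitm1 was 2.0 times (1.44 to 2.82), while Ifitm1 and Ifitm2 could not be separated (1.13, 0.802 to 1.60). The reads of these genes with those of Bst2 summed to 1704 and 2057, a ratio of 1.01 (0.945 to 1.08). Bst2, or tetherin, which holds budding virus at the cell surface, had 23 and 29 reads and an interval that included 1. Over the last 500 bases of the Ifitm2 transcripts, 32.6% of the 75-base words also occur in transcripts of other genes, so that its reads are uncertain.

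The 4 IFIT genes, the classic type I targets whose products bind foreign RNA, had intervals that included 1. Ifit1 had 60 and 59 reads, Ifit2 16 and 23, Ifit3 53 and 57, and Ifit3b 22 and 18. Their reads summed to 151 and 157, a ratio of 0.868 (95% interval 0.690 to 1.09). Ifit3 shares 9.86% of the 75-base words near its 3′ end with Ifit3b.

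The GTPases that attack vacuoles of microbes are mainly targets of interferon-gamma, and 2 of the 7 with at least 10 reads had an interval that left out 1. Of all genes 44.4% did, but that share depends on the reads of each gene, and 7 genes are too few to set beside it. Among the guanylate-binding proteins, Gbp7 had 330 and 306 reads and was 1.29-fold lower (95% interval 1.10 to 1.51), and Gbp2 had 157 and 183 reads, a ratio of 0.974 (0.782 to 1.21). Gbp3 had 76 and 60 reads and was 1.52-fold lower (1.07 to 2.16), with an interval that included 1 under scaling by the total count (0.504 to 1.02) or by epithelial markers (0.497 to 1.01). Gbp6 had 2 and 4 reads, and 70.2% of the words near its 3′ end occur in other genes. All 4 immunity-related GTPases had intervals that included 1. Igtp had 59 and 62 reads, Irgm1 34 and 41, Ifi47 53 and 60, and Iigp1 75 and 111 with a ratio of 1.24 (0.914 to 1.68). Their summed ratio was 1.04 (0.864 to 1.24).

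The 7 remaining genes spread on both sides of WT. Zbp1, a sensor of left-handed nucleic acid that starts necroptosis, had 83 and 55 reads and was 1.81-fold lower (95% interval 1.27 to 2.59). Rtp4 had 112 and 93 reads and was 1.44-fold lower (1.09 to 1.92), which scaling by the total count moved to a ratio of 0.756 with an interval that included 1 (0.568 to 1.00). Xaf1, which favours apoptosis, had 25 and 17 reads and an interval that included 1. On the other side, Trim30a, a TRIM family ubiquitin ligase, had 114 and 177 reads, a ratio of 1.30 (1.02 to 1.66). Ifi44 had 12 and 36 reads, a ratio of 2.51 (1.27 to 5.29), the highest ratio among the 36 genes, on few reads. Ifi27 had 497 and 660 reads and a ratio of 1.11 (0.986 to 1.25). Its interval lay above 1 under scaling by the upper quartile, epithelial markers or the total count. Ifi35 had 121 and 146 reads and a log2 difference of 0.01. The ratio of Trim30a was 2.34 times that of Zbp1 (1.52 to 3.63).

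**Figure D4:**
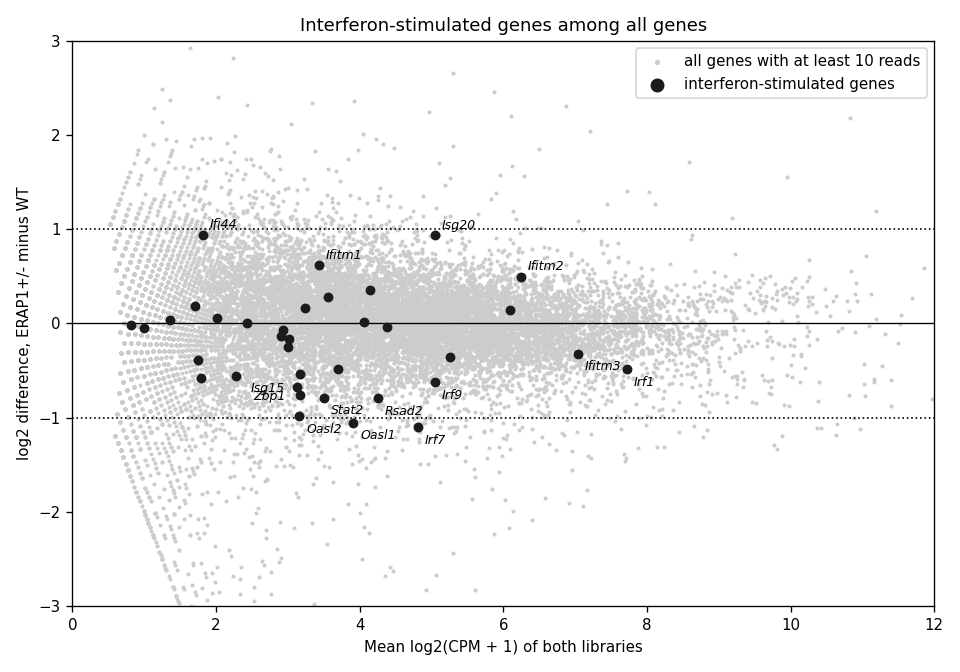
Log2 difference, ERAP1+/- minus WT (y axis), against the mean log2(CPM + 1) of both libraries (x axis) for all 16142 genes with at least 10 reads (grey) and the 36 interferon-stimulated genes among them (black), with 1 library per genotype. The 36 genes lie between -1.10 (Irf7) and 0.94 (Ifi44 and Isg20), and 184 other genes fall outside the drawn range.

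The promoters of the members with the clearest differences were set beside those of near neighbours in the families, to show their binding letters. The genes were chosen for a known response to interferon, so their share of cores beside that of all genes is not an independent result. In RefSeq promoter windows of GRCm38.p6, which run from 250 bases before to 50 bases after each start, 30 of the 39 genes were found. The core of the ISRE was searched as GAAA, any 2 bases and GAAA again, and that of the GAS as TTC, any 3 bases and GAA, on both strands and with overlaps allowed. Of the 30 genes, 18 (60.0%) held the ISRE core, against 3.99% of all 27025 genes with a window, and 9 (30.0%) held the GAS core, against 9.55%. The windows below are written 5′ to 3′ along the gene, with ISRE and GAS cores in capitals, and positions are counted from the start site. Irf7 (chr7:141266375-141266674, minus strand) and Oasl1 (chr5:114922990-114923289, plus strand) are shown as the genes called lower, Isg15 (chr4:156200769-156201068, minus strand) as a lower gene with several cores, Isg20 (chr7:78913174-78913473, plus strand, the first of its 3 windows) as the higher gene, and Ifitm2 (chr7:140955912-140956211, minus strand) and Ifitm3 (chr7:141010695-141010994, minus strand) as neighbours that differed.
Irf7: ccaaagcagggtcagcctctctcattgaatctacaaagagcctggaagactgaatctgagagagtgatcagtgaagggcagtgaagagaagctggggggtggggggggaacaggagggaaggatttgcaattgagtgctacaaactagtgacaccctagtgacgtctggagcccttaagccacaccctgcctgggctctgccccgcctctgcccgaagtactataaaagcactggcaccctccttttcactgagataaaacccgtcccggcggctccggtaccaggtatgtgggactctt
Oasl1: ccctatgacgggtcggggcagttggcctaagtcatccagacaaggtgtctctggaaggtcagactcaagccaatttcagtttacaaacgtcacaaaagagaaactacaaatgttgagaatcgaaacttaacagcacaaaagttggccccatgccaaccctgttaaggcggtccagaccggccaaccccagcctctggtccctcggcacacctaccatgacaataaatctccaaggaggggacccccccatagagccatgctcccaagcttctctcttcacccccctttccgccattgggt
Isg15: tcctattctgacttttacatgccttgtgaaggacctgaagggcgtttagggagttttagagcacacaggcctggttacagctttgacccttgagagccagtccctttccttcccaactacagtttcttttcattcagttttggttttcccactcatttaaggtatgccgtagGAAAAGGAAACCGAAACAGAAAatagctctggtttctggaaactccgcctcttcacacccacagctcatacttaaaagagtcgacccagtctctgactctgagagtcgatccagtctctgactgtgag
Isg20: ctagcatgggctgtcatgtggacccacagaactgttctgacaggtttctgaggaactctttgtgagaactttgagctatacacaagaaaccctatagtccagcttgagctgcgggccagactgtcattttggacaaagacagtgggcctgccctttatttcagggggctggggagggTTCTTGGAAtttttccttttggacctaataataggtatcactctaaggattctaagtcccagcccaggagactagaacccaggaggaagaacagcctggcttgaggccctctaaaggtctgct
Ifitm2: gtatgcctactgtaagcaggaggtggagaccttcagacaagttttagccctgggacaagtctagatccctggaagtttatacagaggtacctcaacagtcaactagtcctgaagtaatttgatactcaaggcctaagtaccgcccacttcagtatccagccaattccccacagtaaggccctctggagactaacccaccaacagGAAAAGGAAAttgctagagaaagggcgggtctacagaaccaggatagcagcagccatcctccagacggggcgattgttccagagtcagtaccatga
Ifitm3: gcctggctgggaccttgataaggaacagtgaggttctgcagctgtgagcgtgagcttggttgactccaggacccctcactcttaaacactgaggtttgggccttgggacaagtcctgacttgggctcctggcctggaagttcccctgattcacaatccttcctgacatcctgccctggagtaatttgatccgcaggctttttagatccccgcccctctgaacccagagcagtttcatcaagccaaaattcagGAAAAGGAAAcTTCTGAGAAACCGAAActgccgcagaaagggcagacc

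Isg15 held 3 overlapping ISRE cores at -78, -72 and -66. Ifitm2 held 1 at -46, and Ifitm3 held ISRE cores at 3 and 20 with a GAS core at 14 that overlaps the one at 20. Isg20 had no ISRE core and a GAS core at -73, and the windows of Irf7, Oasl1 and Oasl2 held neither core. A match is a description of letters, and the lack of one says only that these letters are not in this window. Among the members with at least 10 reads and a window, the 18 with an ISRE core had a median log2 difference of -0.21, with 2 intervals above 1 and 6 below. The 12 without one had a median of -0.28, with 3 above and 5 below. Over all genes, those medians were 0.03 for 462 genes with the core and 0.01 for 11784 genes without it. Intervals lay above 1 for 22.9% and below for 19.7% of the genes with the core, and for 20.8% and 23.6% of those without.

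The interferons themselves were not detected. All 20 genes of type I and type III interferon and Ifng had 0 reads in both libraries. The receptors were all present. Of 6 receptor genes, 3 had intervals below 1 and none above, with a median log2 difference of -0.23, against 23.8% of all genes below 1 and 20.6% above. Under the total count the receptors had 1 above and 2 below with a median of -0.11, and under epithelial markers 1 above and 3 below with -0.13. The gene that came to lie above 1 was Ifngr1 (2329 and 2754 reads). Ifnlr1, the chain particular to type III interferon, had 115 and 90 reads and a difference of -0.57, and Ifngr2 of the interferon-gamma receptor had 686 and 658 reads and a difference of -0.32. Il10rb, the partner of Ifnlr1, had 378 and 361 reads and a difference of -0.32, and its interval included 1 under scaling by the total count (0.751 to 1.01).

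Below the receptors, 2 of 5 genes of the JAK-STAT core had intervals below 1 and none above, with a median of -0.03. Of all genes, 23.8% lay below 1 and 20.6% above. Under the total count 1 lay above, Tyk2 (98 and 141 reads, ratio 1.31, 1.01 to 1.71), and the median turned to 0.090, or 0.070 under epithelial markers. The medians of all genes under these scalings were 0.11 and 0.10. Jak2, the kinase of the interferon-gamma receptor, had 529 and 365 reads and a difference of -0.78, and Stat3 had 2131 and 1698 reads and a difference of -0.58.

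Among 9 negative regulators, 2 intervals (22.2%) lay above 1 and 2 below, with a median of -0.02. Ptpn6, a phosphatase of immune cells, was the highest, with 129 and 283 reads and a difference of 0.84. Of 14 sensors and adaptors of nucleic acid sensing with at least 10 reads, 3 (21.4%) were above and 3 below, with a median of -0.07. Both lists lay near the shares of all genes, 20.6% above and 23.8% below. Sting1, the adaptor of DNA sensing, had 57 and 124 reads and a difference of 0.78, and Trim25, which helps the RNA sensor RIG-I, had 1048 and 841 reads and a difference of -0.57. Irf8, a transcription factor of myeloid and B cells, had 523 and 846 reads and a difference of 0.43.

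A second list of 40 interferon-stimulated genes that are not among the 39 lay near the background. All 40 had at least 10 reads, none was called past 2-fold, 6 (15%) had intervals above 1 and 12 (30%) below, with a median of -0.03, against 20.6% and 23.8% of all genes. Under the total count as the scale, the balance turned to 11 above and 8 below, while the 39 genes had 6 above and 11 below. That scaling also moved the median of all genes to 0.11, and their share of intervals was not counted under it. The lower genes included Lgals9 (307 and 212 reads, difference -0.77) and the partners Dtx3l (467 and 361 reads, -0.62) and Parp9 (451 and 367 reads, -0.55), whose products form a complex with ubiquitin ligase activity. Parp12, which restrains viral translation, had 496 and 391 reads and a difference of -0.59. Ly6e, a surface protein that alters virus entry, was among the higher genes with 1324 and 2096 reads and a difference of 0.40.

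The list of interferon-gamma targets had a median on the other side of 0 from that of the 39 genes. Of 29 such genes, 23 had at least 10 reads, and the median was 0.20. Intervals lay above 1 for 8 (34.8%) and below for 4 (17.4%), against 20.6% and 23.8% of all genes. Their summed reads, 27273 and 30080, gave a ratio of 0.921 (95% interval 0.906 to 0.937), below 1 and near the 0.917 of all genes, so that the median and the sum lie on opposite sides. The chemokine genes Cxcl9 (4 and 23 reads, difference 1.20) and Cxcl10 (4 and 18 reads, 0.95) and the GTPase gene Gbp5 (11 and 33 reads, 0.91) were the highest and rest on few reads. The MHC class II genes H2-Eb1 (429 and 891 reads, 0.78) and H2-Aa (809 and 1515 reads, 0.64) were higher. The class I genes H2-D1 (5848 and 4633 reads, -0.59) and H2-K1 (9290 and 8216 reads, -0.44), whose products receive the peptides that ERAP1 trims, were lower, as was the peptide transporter gene Tap1 (133 and 110 reads, -0.50). The class I pathway did not move one way. B2m, the light chain that class I molecules share, had 7230 and 10132 reads and a ratio above 1, 1.17 (95% interval 1.14 to 1.21). Tap2, the partner of Tap1, had 135 and 194 reads and a ratio of 1.20 (0.959 to 1.51), with an interval above 1 under the total count or epithelial markers. The immunoproteasome genes Psmb8 (ratio 1.01, 0.878 to 1.16) and Psmb9 (1.01, 0.829 to 1.22) had intervals that included 1. Class I genes are alike in sequence, and reads can be shared among them. No gene of these pathway lists was called past 2-fold.

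**Figure D5:**
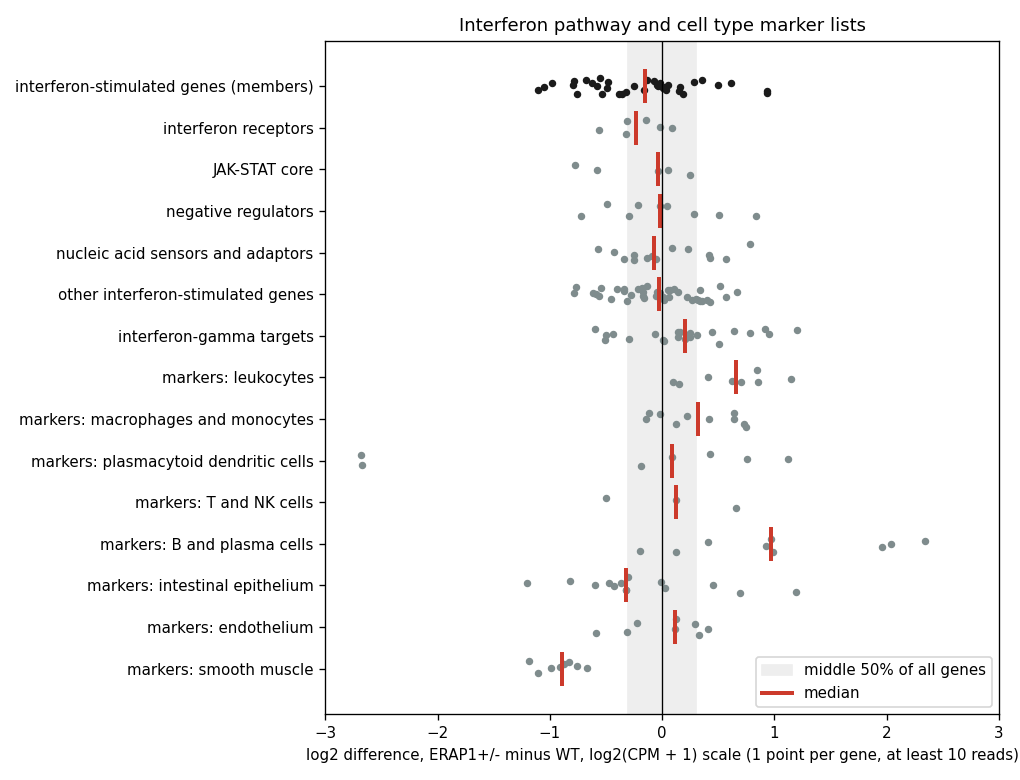
Log2 difference, ERAP1+/- minus WT on the log2(CPM + 1) scale (x axis), of each gene with at least 10 reads in the 39 interferon-stimulated genes, 6 interferon pathway lists and 8 cell type marker lists, with 1 point per gene, a red bar at each median and the middle 50% of all genes shaded. The members have a median of -0.15, interferon-gamma targets 0.20, B and plasma cells 0.97 and smooth muscle -0.89. The epidermis and skeletal muscle lists, whose medians lie outside the scale of the plot, are not drawn.

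Several marker lists differed between the libraries beside these genes. The 8 leukocyte markers summed to 749 and 1489 reads, a level 1.66 times that of WT (95% interval 1.52 to 1.82), with 6 intervals above 1 and none below. The 10 markers of macrophages and monocytes were at 1.29 times WT (1.22 to 1.36), also with 6 above and none below. Among all genes, 20.6% had intervals above 1 and 23.8% below. Siglech, a surface receptor of plasmacytoid dendritic cells, the main producers of type I interferon, had 27 and 61 reads and a ratio of 1.89 (1.18 to 3.09). Over the 7 markers of those cells, 3 intervals lay above 1 and 3 below, so that the list gives no direction for these cells. The higher ones besides Siglech were Klk1 (3048 and 7953 reads, ratio 2.18) and Irf8, which other myeloid cells and B cells also express. The lower ones were Tcf4 (3505 and 3691 reads), Ly6d (649 and 114 reads) and Cox6a2 (112 and 13 reads). Stratified epithelium and striated muscle also express Ly6d and Cox6a2. Of 14 T and NK cell markers, only 3 had 10 reads or more, all 3 intervals included 1, and Cd8b1 had no read in either library. The 14 epithelial markers were at a ratio of 0.930 (0.923 to 0.938), near the 0.917 of all genes, with 3 above and 9 below. Among them, Muc2 (12020 and 32939 reads, ratio 2.29) was called higher and Krt20 (5156 and 2674 reads, 0.433) lower. The 8 smooth muscle markers were 1.93-fold lower (1.90 to 1.95), all 8 below 1. The part of the cell makeup of the pools in the values of the 39 genes was not tested.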

How the data were processed

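For each genotype, intestinal RNA of 3 control mice was combined into 1 library, made with a kit that primes on poly(A) and sequences the 3′ end. The deposited values are raw counts of reads for each gene symbol. The submitters' processing notes name Bowtie2, RSEM and GRCm38, the methods also describe another aligner and counter, and the strand setting is not given in the sources used here. The depth was 8114826 reads (WT) and 8907515 reads (ERAP1+/-), and its precision is given by the interval beside each ratio.

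In R 4.3.3, edgeR 4.0.16 gave TMM factors of 0.958 for WT and 1.04 for ERAP1+/-, and the scaled library sizes gave CPM and log2(CPM + 1). Intervals of ratios are exact, from the binomial distribution of the reads given their sum (95%, scipy 1.17.1). Medians and counts of intervals needed at least 10 reads over both libraries. The ratios given for Oas2 and Mx2 rest on fewer, and summed ratios take all genes of a group or list. No model across genes was fitted, since no residual degrees of freedom are left. Ratios of ratios are conditional odds ratios over the reads of 2 genes. The scripts were tested on simulated data.

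The 39 genes, the pathway and marker lists and the tests were chosen with earlier results of these data known. Genes named with full values were those called, those with an interval that leaves out 1 past 1.5-fold and the 5 with the most reads, with the others given by reads. From other lists, genes with intervals that leave out 1 or with a known role in the pathway were named. Coordinates and overlaps are from GENCODE M21 on GRCm38. Words of 75 bases in the last 500 bases of each transcript were compared with the transcripts of all other genes. One gene of the pathway lists is not reported here by name.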

Additional observations from a re-analysis of the deposited data

How the results depend on the processing

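No paired analysis was possible because there is 1 library on each side. The count of 2 members called past 2-fold became 1 with scaling by the total count, 5 at a 1.5-fold threshold (1 higher, 4 lower, with a background of 15.6%) and 0 at 4-fold (background 2.0%). The median log2 difference of -0.15 over the members became -0.040 with the total count, -0.058 with epithelial marker reads, -0.070 with no filter on low reads and -0.25 with at least 50 reads. The first 2 of these scalings also moved the median of all genes, to 0.11 and 0.10. The median of the members less that of all genes was -0.15 under both. With no filter it was -0.078, and with at least 50 reads -0.25. The second list of 40 interferon-stimulated genes went from a median of -0.03 to 0.066 with the total count and 0.049 with epithelial marker reads. The interferon-gamma targets went from 0.20 to 0.28 and 0.26 with those scalings, 0.23 with a pseudocount of 0.1 and 0.15 with at least 50 reads. The cause of these shifts was not tested beyond the change of scale or filter itself.

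The count of members whose interval leaves out 1 stayed between 17 and 19 in all settings run. Over 36 members and 9 settings, 311 values kept their interval on the same side of 1 or across it, 3 came to include 1 (Gbp3 with the total count and with epithelial marker reads, Rtp4 with the total count) and 3 came to leave out 1 (Ifi27 with the total count, the upper quartile and epithelial marker reads), and none was reversed. Members under 50 reads have no value in the setting that asks for 50. Medians of the pathway lists turned from below to above 0 under the total count for the JAK-STAT core (0.090), negative regulators (0.098) and sensors (0.034). All 3 stayed below the median of all genes, which was 0.11 under that scaling. Across all genes, TMM gave 111 higher and 317 lower calls and the total count 166 and 248. Depth limits members with few reads, as the interval of Oas2 (0.608 to 231) shows, and the spread between mice or pools cannot be estimated from 1 library per genotype.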
